A study of Mus musculus with 8 samples.

Results

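The 59 genes described here encode the contractile, calcium-handling and energy-supplying proteins of striated muscle, and they were measured in liver RNA. They were chosen by gene symbol, with their behaviour in these same libraries already known, so their difference between the groups is given as a description and not as a test. The 59 symbols were found among the 56884 genes of the count tables, and 56 of them were among the 12412 genes with enough counts to be tested. The libraries came from 18-month-old female C57BL/6J mice. All of the mice were made obese from 2 months of age by 4 months of a high-fat diet (HFD) with 45% of its energy as lipids, and they stayed on a diet of that fat content. The DIO group (diet-induced obese, n = 3 mice) continued on the HFD, and in the DIO + DHA group (n = 5 mice) a fish oil concentrate replaced 15% by weight of the dietary lipids. That concentrate held 683.4 mg of docosahexaenoic acid (DHA) per g and also contained eicosapentaenoic acid, so the diets differed in more than DHA. Each library came from the liver of a single mouse, and replicate numbers are those of the labels (1, 4 and 5 for DIO, and 1, 2, 4, 5 and 6 for DIO + DHA).

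The contractile unit of striated muscle, the sarcomere, is built of thin filaments of actin with tropomyosin and troponin, thick filaments of myosin, and titin that spans from the Z disc to the middle. Calcium released from the sarcoplasmic reticulum binds troponin C and allows myosin to pull on actin, and creatine kinase restores the ATP that this uses. Most sarcomere proteins have a fast and a slow isoform encoded by separate genes, and the mix of isoforms differs between muscles. Hepatocytes do not build sarcomeres, although some members, such as the tropomyosins Tpm1 and Tpm2, are also expressed in many non-muscle cells.

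Promoters are shown first because some members share short motifs that the choice of genes did not use. Of the 59 members, 45 had 1 or more promoter in the RefSeq promoter set (GRCm38.p6), each taken from 250 bases before to 50 bases after a transcription start, and these gave 53 member promoters among 32851 of all genes. Motifs were counted on both strands, with overlaps allowed. The CArG box, which serum response factor binds, was present in 5 of the 53 member promoters (9.43%) and in 1.63% of all promoters. These 5 promoters belong to 4 of the 45 members, since the same Ldb3 site fell in promoters of different transcription starts. The MEF2 box was present in 9 member promoters (17.0%) and in 3.19% of all promoters, and the E-box CAGCTG, a sequence that myogenic factors can bind, in 27 (50.9%) and 16.3%. The TATAAA element was present in 12 member promoters (22.6%, against 13.6% of all), and the GC-rich GGGCGG in 15 (28.3%, against 35.7%). A match is a description of letters and was not tested as a binding site. The windows below are 30 bases long, 5′ to 3′ on the strand of the gene, with the motif in capitals. They were chosen because 3 neighbouring myosin heavy chain genes carry the same MEF2 letters, and because Acta1, Myl3 and Ldb3 show how the CArG box varies between genes of different filaments. The last window is the CArG box of Myh4, the member here with both motifs.
Myh1, MEF2 box, chr11:67199881-67199910, plus strand: acaactcaaaTTATTTATAGgagattgatt
Myh4, MEF2 box, chr11:67237620-67237649, plus strand: ccctgtcaaaTTATTTATAGatgacaagaa
Myh8, MEF2 box, chr11:67277015-67277044, plus strand: ccttgtcaaaTTATTTATAGgagattggtt
Acta1, CArG box, chr8:123894829-123894858, minus strand: tgcccgacacCCAAATATGGcttgggaagg
Myl3, CArG box, chr9:110763583-110763612, plus strand: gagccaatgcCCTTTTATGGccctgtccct
Ldb3, CArG box, chr14:34588697-34588726, minus strand: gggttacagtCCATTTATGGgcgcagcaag
Myh4, CArG box, chr11:67237698-67237727, plus strand: aaagagattgCCAAAAATGGttttgccaag

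Expression is given in CPM, each count divided by its library's TMM-normalized size and brought to the same scale in all libraries. The libraries held 1723800 to 5690347 counts, and at these depths 1 count was worth 0.177 to 0.561 CPM in the DIO libraries. Hepatocyte transcripts dominated in both groups, with a summed level of 79965 to 85306 CPM in DIO and 82966 to 97118 CPM in DIO + DHA for 8 hepatocyte markers. In liver RNA, a larger number of cells of a given type and more RNA per cell cannot be told apart.

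Summed over the 59 members, the level was 162, 161 and 168 CPM in DIO replicates 1, 4 and 5. In DIO + DHA replicates 1, 2, 4, 5 and 6 it was 2311, 2246, 2168, 2213 and 2123 CPM. The groups were therefore far apart and each was narrow, with means of 164 ± 3.81 CPM (SD, n = 3) and 2212 ± 72.0 CPM (SD, n = 5). The ratio of the means was 13.5, and the coefficient of variation over the 5 DIO + DHA mice was 3.25%. Acta1 alone made up 24.6% of the DIO + DHA sum.

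Of the 56 members tested, 54 were called higher in the DIO + DHA group by edgeR at an adjusted p under 0.05, and 0 were called lower. Among all tested genes 7.86% were called higher and 7.28% lower, and the members were chosen on this contrast, so nothing is read from the count. The groups did not overlap for 54 of the tested members, against 9.53% of all tested genes that lay wholly higher in DIO + DHA. A fitted log2 fold change above 4 was seen for 43 members, against 0.951% of all tested genes. Of the 43, 6 had 0 counts in DIO, where the fitted value depends on the prior count of the fit, and with these set to a floor of 3 DIO counts 41 members lay above 4. The median of the 56 members was 4.76 on the log2 scale, or 4.62 with those 6 at that floor, and over all tested genes it was close to 0 (0.00082). The smallest value was 0.52 for Csrp3, and the largest among members with counts in DIO was 6.79 for Myh2, which rests on 3 DIO counts. No tested member had a negative fold change, so none was lower at any p. Ankrd2 and Jph1 were tested and not called. Myh3 (2 counts in all libraries together), Ampd1 (14 counts) and Pln (0 counts) had too few counts to be tested.

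**Figure D1:**
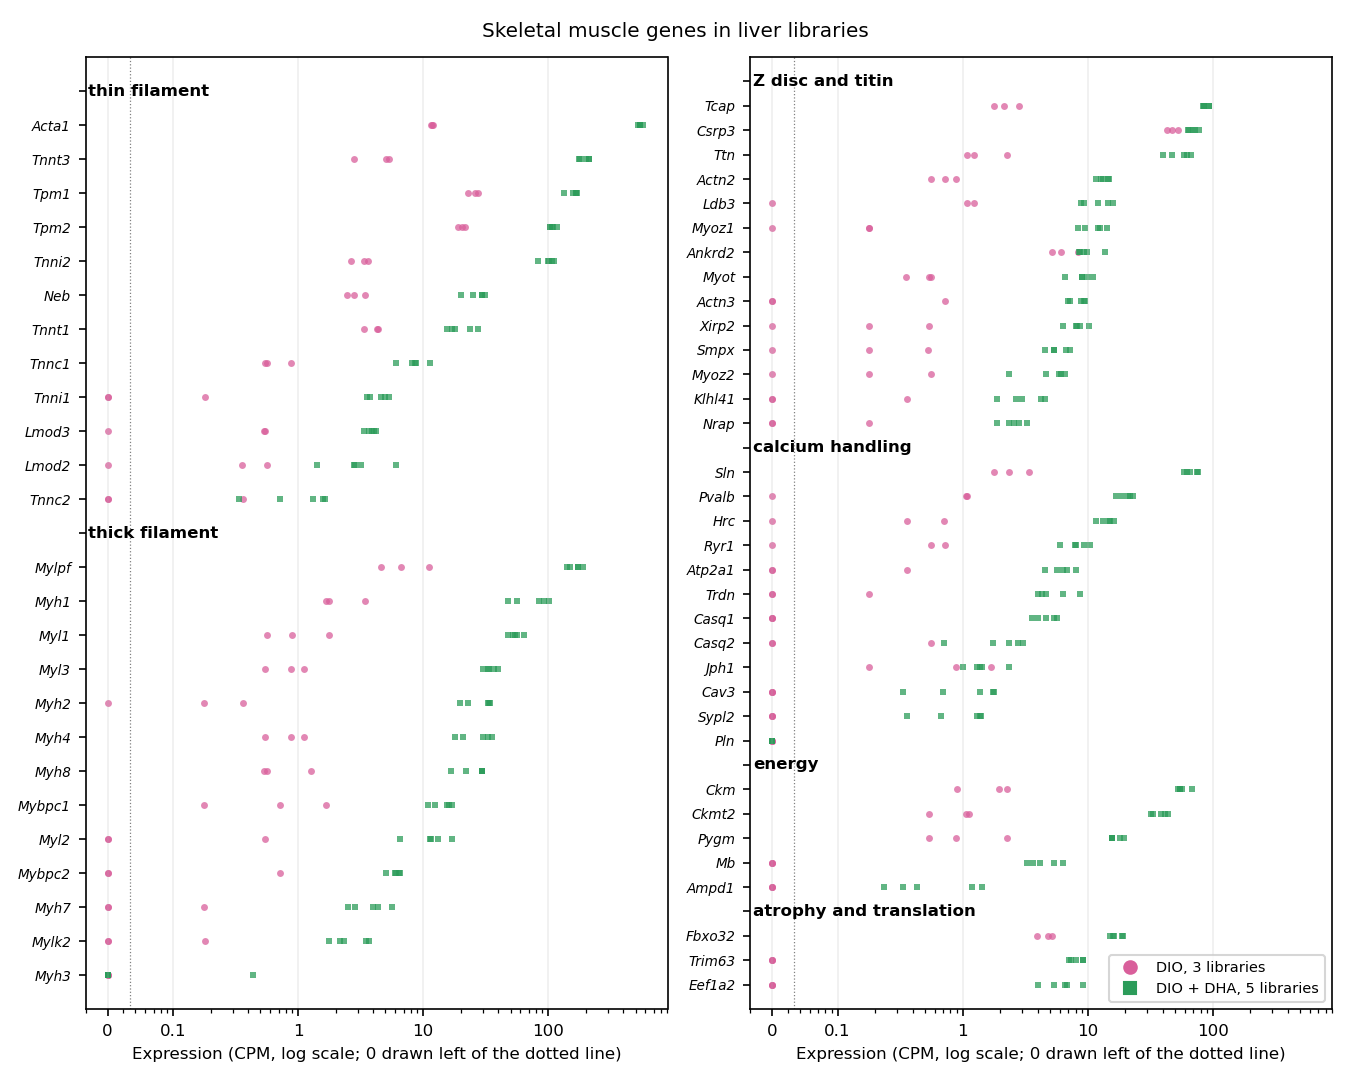
Expression of the 59 members in each library, in CPM on a log axis, grouped by role and ordered by the mean in DIO + DHA. Circles are the 3 DIO libraries and squares the 5 DIO + DHA libraries, zeros are drawn left of the dotted line, and the squares lie to the right of the circles for all members but Tnnc2, Jph1, Myh3 and Pln, and by little for Ankrd2.

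Thin filament genes carried the largest part of the sum, 1133 to 1224 CPM in DIO + DHA and 71.9 to 75.8 CPM in DIO. Acta1 (ENSMUSG00000031972.6, GRCm39 chr8:124618508-124621490, minus strand), the actin of skeletal muscle thin filaments, was at 11.8, 12.1 and 11.5 CPM in DIO and at 578, 522, 538, 542 and 538 CPM in DIO + DHA. It was the most abundant member in every DIO + DHA library, and its 5 values differed by no more than a factor of 1.11. Tnnt3, the fast isoform of troponin T, which anchors the troponin complex to tropomyosin, was at 2.81, 5.04 and 5.31 CPM in DIO and at 176, 213, 199, 211 and 178 CPM in DIO + DHA. Tnni2, the fast form of the inhibitory subunit, was at 3.37, 3.6 and 2.66 CPM in DIO. In DIO + DHA it was at 108, 102, 99.0, 83.2 and 111 CPM, again without overlap. Of the slow counterparts, Tnnt1 was at 3.37, 4.32 and 4.25 CPM in DIO and at 27.5, 18.1, 17.1, 15.7 and 23.5 CPM in DIO + DHA, the widest spread among the abundant thin filament genes. Tnni1 had a single count in all DIO libraries together and 3.56 to 5.35 CPM in DIO + DHA.

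The tropomyosins, which block the myosin sites on actin until calcium arrives, stood higher in DIO than any troponin. Tpm1 was at 27.5, 23 and 26.2 CPM in DIO and at 168, 166, 171, 157 and 133 CPM in DIO + DHA. Tpm2 was at 19.1, 20.3 and 21.6 CPM in DIO and at 117, 109, 103, 103 and 108 CPM in DIO + DHA. Both were about 5 to 6 times higher in DIO + DHA, with ratios of means of 6.21 and 5.30. Nebulin (Neb), a ruler of thin filament length, was at 2.90 ± 0.477 CPM in DIO (SD, n = 3) and at 27.1 ± 4.52 CPM in DIO + DHA (SD, n = 5). The leiomodins Lmod2 and Lmod3, which nucleate actin, reached 3.25 ± 1.69 and 3.84 ± 0.322 CPM in DIO + DHA. For troponin C, the calcium sensor, slow Tnnc1 was at 0.540 to 0.885 CPM in DIO and 6.02 to 11.4 CPM in DIO + DHA, whereas fast Tnnc2 had only 2 and 24 counts in all. Of the exon bases of Tnnc2, 74% lie in the antisense gene Ube2c as well, and reads falling there were not counted for either gene, so its level was read from the remaining bases only. Its call was lost in 5 of the alternatives tried.

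Thick filament genes summed to 11 to 18 CPM in DIO and 412 to 496 CPM in DIO + DHA. Mylpf, the fast regulatory light chain of myosin, was the most abundant, at 11.2, 6.66 and 4.60 CPM in DIO and 173, 142, 172, 148 and 191 CPM in DIO + DHA. Myh1, the heavy chain of type IIX fibres, was at 1.68, 3.42 and 1.77 CPM in DIO and at 92.8, 102, 56.6, 84.6 and 47.3 CPM in DIO + DHA. Its 2 lowest DIO + DHA values belonged to replicates 4 and 6, a pattern shared by the other heavy chains and described below. Myh2, of type IIA fibres, had 3 counts in DIO and 34.4, 33.4, 22.8, 33.2 and 19.6 CPM in DIO + DHA. Myh4, of type IIB fibres, was at 1.12, 0.540 and 0.885 CPM in DIO and at 29.9, 32.8, 21, 35.3 and 17.9 CPM in DIO + DHA. Myh8, the heavy chain first described in the perinatal period, was at 0.561, 1.26 and 0.531 CPM in DIO and reached 29.7, 29.4, 22.1, 29.4 and 16.8 CPM in DIO + DHA, a count level like that of Myh4. Myh7, of slow type I fibres, had 1 count in DIO and 2.49 to 5.68 CPM in DIO + DHA, and embryonic Myh3 had 2 counts, both in DIO + DHA replicate 6.

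All of the 6 heavy chain members but Myh7 stand in a row on chromosome 11 of GRCm39, all on the plus strand, from Myh3 (chr11:66969126-66993117) over Myh2 (chr11:67061853-67088343), Myh1 (chr11:67090878-67115401) and Myh4 (chr11:67128855-67151272) to Myh8 (chr11:67167950-67199460). Myh7 lies apart on chromosome 14 (chr14:55208141-55232083, minus strand). These genes are close in sequence, only reads that aligned to a single place were counted, and how many reads were lost to that is not known, so the division of reads among the row is less certain than their sum. Among the light chains, fast Myl1 and slow Myl3 were at 55.1 ± 5.85 and 34.7 ± 3.69 CPM in DIO + DHA (SD, n = 5), from 1.08 ± 0.624 and 0.849 ± 0.293 CPM in DIO (SD, n = 3). Slow Myl2 had 3 counts in DIO and 6.54 to 17.1 CPM in DIO + DHA. The myosin-binding proteins Mybpc1 (slow) and Mybpc2 (fast) stood at 14.4 ± 2.64 and 5.98 ± 0.600 CPM in DIO + DHA. Mylk2, the kinase that phosphorylates the regulatory light chain of skeletal muscle, was at 1.78 to 3.68 CPM there and had 1 count in DIO.

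The Z disc group behaved in a less uniform way, with a sum of 56.1 to 68.2 CPM in DIO and 293 to 308 CPM in DIO + DHA. Tcap, which caps titin at the Z disc, was at 2.81, 1.80 and 2.12 CPM in DIO and at 93.4, 82.9, 93.3, 85.8 and 85 CPM in DIO + DHA. Ttn, the titin spring itself, was at 2.25, 1.08 and 1.24 CPM in DIO and at 59.0, 62.9, 47.0, 67.1 and 40.1 CPM in DIO + DHA. Csrp3, a Z disc protein of striated muscle that takes part in stretch sensing, was by contrast already at 43.2, 47.0 and 52.9 CPM in DIO, and it was at 63.9, 71.9, 69.1, 65.0 and 77.6 CPM in DIO + DHA. Csrp3 was the most abundant member in every DIO library. Ankrd2, another stretch-responsive Z disc gene of slow muscle, was at 6.17, 5.22 and 8.32 CPM in DIO and at 8.51, 13.7, 9.97, 8.65 and 9.37 CPM in DIO + DHA, where the highest DIO and lowest DIO + DHA libraries nearly met. The other 10 genes of the group, among them the actinins Actn2 and Actn3, the myozenins Myoz1 and Myoz2, Ldb3, Myot and Xirp2, had mean levels from 0.0600 to 0.773 CPM in DIO and from 2.58 to 13.4 CPM in DIO + DHA.

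Among calcium-handling genes, Sln was by far the most abundant. Sarcolipin, its product, is a small regulator of the sarcoplasmic reticulum calcium pump, and its level was 3.37, 2.34 and 1.77 CPM in DIO and 59.2, 62.9, 76.5, 74.5 and 65.8 CPM in DIO + DHA. Pln, the related regulator of slow and cardiac muscle, had 0 counts in all 8 libraries, although 64.7% of its exon bases are shared with other genes and could not collect reads. Pvalb, the calcium buffer of fast fibres, was at 0, 1.08 and 1.06 CPM in DIO and at 23, 18.7, 21, 16.8 and 22 CPM in DIO + DHA. The release channel Ryr1 and the fast pump Atp2a1 reached 8.36 ± 1.65 and 6.31 ± 1.27 CPM in DIO + DHA (SD, n = 5). Of the exon bases of Atp2a1, 21.9% are shared with another gene and could not collect reads. Casq1, the fast calcium store, had 0 counts in DIO and 3.56 to 5.67 CPM in DIO + DHA, at least 20.0-fold higher when DIO is set to a floor of 3 counts over the group. The calcium-binding Hrc, triadin (Trdn), which links the store to the channel, and the slow store Casq2 stood at 14.2 ± 1.76, 5.6 ± 1.95 and 2.12 ± 0.927 CPM in DIO + DHA, with 6, 1 and 1 counts in DIO. Cav3 and Sypl2, of the membrane system, also had 0 counts in DIO. With the same floor they were 5.27-fold and 4.83-fold higher (lower limits 3.96-fold and 3.61-fold). Jph1, which ties the reticulum to the cell membrane, overlapped between the groups, at 1.68, 0.180 and 0.885 CPM in DIO and 1.00 to 2.34 CPM in DIO + DHA.

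The energy genes had few counts in DIO, from 0 to 20 each. Ckm, the muscle creatine kinase, was at 2.25, 0.900 and 1.95 CPM in DIO and at 55.2, 67.9, 52.3, 57.2 and 54.5 CPM in DIO + DHA. Its mitochondrial partner Ckmt2 was at 0.908 ± 0.321 CPM in DIO (SD, n = 3) and 37.9 ± 5.14 CPM in DIO + DHA (SD, n = 5), and Pygm, the glycogen phosphorylase of muscle, at 1.22 ± 0.902 and 17.0 ± 1.82 CPM. Mb, the oxygen store myoglobin, had 0 counts in DIO and 6.33, 3.68, 5.34, 3.27 and 4.14 CPM in DIO + DHA, at least 20.0-fold higher. Ampd1, a deaminase of fast fibres, had 0 counts in DIO and 14 in DIO + DHA, 3.07-fold higher at that floor (lower limit 2.18-fold).

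Of the 3 remaining members, Trim63 and Fbxo32 are ubiquitin ligases that mark muscle proteins for breakdown in atrophy, and Eef1a2 is the translation elongation factor of adult muscle and neurons. Trim63 had 0 counts in DIO and 9.10, 8.03, 7.12, 9.11 and 7.41 CPM in DIO + DHA, at least 35.8-fold higher, and Eef1a2 had 0 counts in DIO and 4.01 to 9.10 CPM in DIO + DHA, at least 29-fold higher. Fbxo32 was at 3.93, 5.22 and 4.78 CPM in DIO and 16.0, 19.1, 16.4, 18.9 and 15.0 CPM in DIO + DHA. The 2 ligases thus differed in DIO, where Fbxo32 had 63 counts and Trim63 none.

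The DIO libraries held little of most members, and the remainder was not the same fraction of the DIO + DHA level for all of them. Of the 59 members, 8 had 0 counts in DIO and at least 1 in DIO + DHA, 14 had 1 to 3 DIO counts, and 36 had more than 3. For these 36 the DIO level, from summed counts, had a median of 4.41% of the DIO + DHA level. It lay below 5% for 20 members, from 5% to 10% for 7 and above 10% for 9. Acta1 stood at 2.16% (95% exact interval 1.83% to 2.53%, counting error only). Of the 35 others, 17 had intervals that included this point value, and 18 had intervals wholly above it. This count leaves out the counting error of Acta1 itself, which had the lowest value of the 36. Tnnt3 (2.51%), Tcap (2.36%), Ttn (2.37%), Ckm (2.7%) and Myl1 (2.24%) were among the 17. Mylpf, at 3.82% (3.04% to 4.75%), Tnni2 (3.13%, 2.24% to 4.26%), Myh1 (3.21%, 2.19% to 4.55%), Sln (3.33%, 2.22% to 4.80%), Pvalb (4.51%) and Pygm (5.47%) were among the 18. Of these, Tnni2, Myh1, Sln and Pvalb had intervals that overlapped the interval of Acta1, and Mylpf and Pygm did not. Csrp3 (70.8%, 64.4% to 77.9%), Ankrd2 (68.8%, 52.8% to 89.1%), Fbxo32 (28.7%), Tnnt1 (19.7%), Tpm2 (19.1%), Tpm1 (15.9%) and Neb (10.8%, 7.56% to 15.0%) lay far above, and each was at 1 CPM or more in DIO. Jph1 and Lmod3 also lay above 10%, with few counts. Without those 7 genes the member sum was 51.9 ± 4.12 CPM in DIO (SD, n = 3) and 1801 ± 56.6 CPM in DIO + DHA (SD, n = 5). The ratio of these sums, 34.7, is larger by construction, since the 7 genes were taken out for their small difference.

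**Figure D2:**
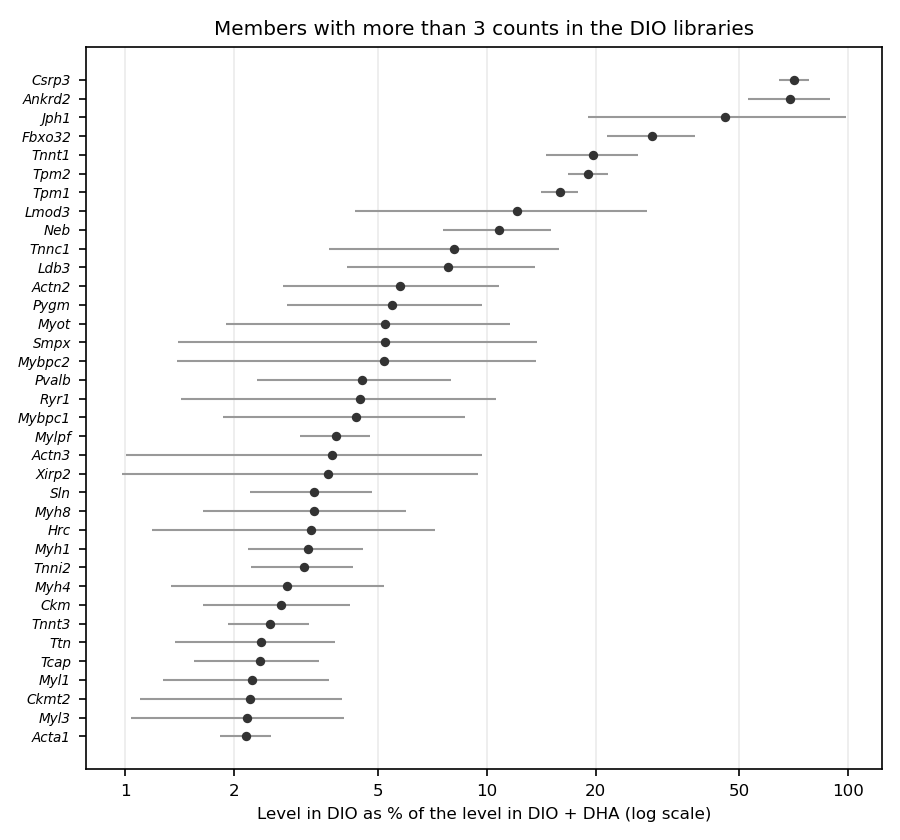
Level in DIO as a percentage of the level in DIO + DHA (log axis) for the 36 members with more than 3 counts in the DIO libraries. Points are ratios of summed counts over summed library sizes and bars are 95% exact intervals for counting error. Acta1 is lowest at 2.16%, and Csrp3 and Ankrd2 are highest at 70.8% and 68.8%.

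Ratios between genes of the same library were compared as well. In DIO + DHA, Tcap counted 15.8% to 17.3% of Acta1 in each library and Tpm2 19% to 20.8%. In the 3 DIO libraries together, Tcap was at 17.6% of Acta1 (11.3% to 26.7%), while Tpm2 was at 176% (144% to 216%) and Csrp3 at 416% (348% to 500%), against 12.8% ± 1.34 for Csrp3 in DIO + DHA (SD, n = 5). For 8 of 12 abundant members the DIO interval of the ratio to Acta1 included the DIO + DHA mean, and for Tpm1, Tpm2, Csrp3 and Mylpf it did not. For Mylpf the DIO ratio was 54.2% (41.0% to 71.3%) and the DIO + DHA mean 30.4% ± 3.47.

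To compare isoforms, which are different genes, the levels were divided by the exon length of each gene. Since the cDNA was enriched in 3′ ends, a count need not scale with length, and the shares from undivided counts are given with the alternatives. Among the heavy chains in DIO + DHA, Myh1 held 51.5% ± 2.36 of the level per kb (SD, n = 5), Myh4 19.6% ± 1.47, Myh2 17.4% ± 0.917, Myh8 9.42% ± 0.743 and Myh7 1.93% ± 0.278. Per kb, the order Myh1, then Myh4, Myh2, Myh8 and Myh7 was the same in all 5 libraries, with Myh4 and Myh2 close, at 18.1% and 17.6% in replicate 1. The order below Myh1 depended on the division by length. Myh8 had 11772 bp of exon and Myh1 6353 bp, while their longest coding lengths were 5811 and 5862 bp. Dividing by exon length therefore lowered the share of Myh8 and raised the fast share. In undivided counts pooled over DIO + DHA, Myh2 held 17.8%, Myh4 16.9% and Myh8 15.7%. By counts, Myh4 stood above Myh2 only in replicate 5 (18.9% against 17.8%). The 3 adult fast chains together made up 88.6% ± 0.690 of the family per kb and 81.7% of its counts, and 97.9% ± 0.299 when set against slow Myh7 alone. The 57 heavy chain counts of the 3 DIO libraries divided into 32 of Myh1, 11 of Myh8, 10 of Myh4, 3 of Myh2 and 1 of Myh7, which is 87.1% fast per kb. Myh2 made up 5.26% of these counts (95% exact interval 1.10% to 14.6%), below its 17.8% of the pooled DIO + DHA counts.

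**Figure D3:**
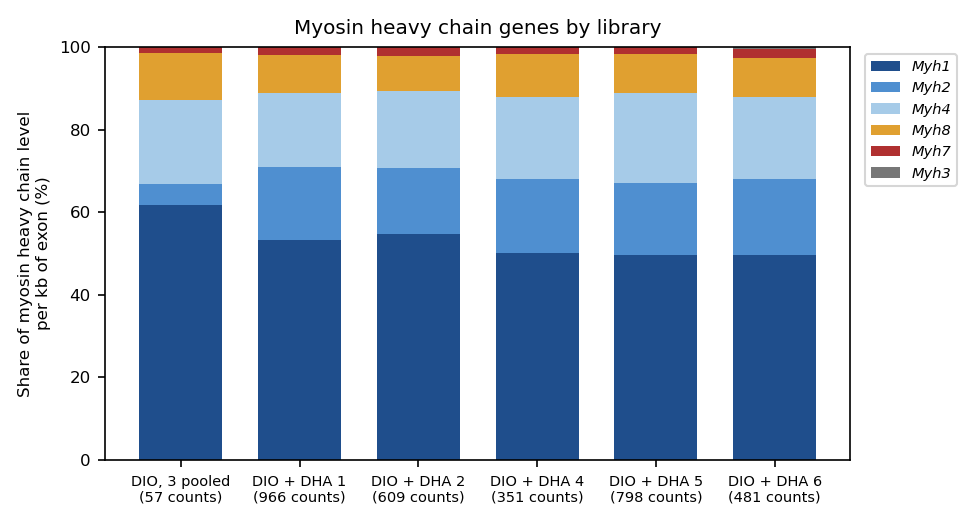
Share of each myosin heavy chain gene in the heavy chain level per kb of exon, in the 3 DIO libraries pooled and in each DIO + DHA library, with the number of heavy chain counts under each bar. Myh1 holds 49.7% to 54.8% in every DIO + DHA library and Myh7 no more than 2.24%.

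The fast isoform also held most of several other families in DIO + DHA, per kb. Fast Tnni2 made up 98.2% ± 0.247 of troponin I (SD, n = 5), Mylpf 96.2% ± 1.41 of the regulatory light chains and Tnnt3 92.9% ± 2.18 of troponin T. Myoz1 held 80.3% ± 5.11 of the myozenins and Casq1 75.3% ± 11.1 of the calsequestrins. Myl1 and Myl3 were nearer to each other, with 61.0% ± 2.90 for fast Myl1. In 2 families the slow gene had the larger counted level. Fast Mybpc2 held 34.5% ± 3.57 of the myosin-binding proteins, and fast Tnnc2 14.1% ± 6.56 of troponin C, or 37.3% ± 13.5 per kb of exon not shared with another gene. Since 74% of the exon bases of Tnnc2 could not collect reads, which troponin C gene was larger is not known.

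The DIO libraries, pooled, gave shares near to these in several families. Troponin T was further off, with 63 counts of Tnnt3 and 54 of Tnnt1, a fast share of 53.8% of counts (95% exact interval 44.4% to 63.1%) and 61.9% per kb. Each DIO library was low, at 53.7%, 61.9% and 63.5% per kb, and each DIO + DHA library was at 89.9% or more. For the essential light chains the DIO share was 61.2% per kb from 26 counts, and for troponin I 99.0% from 42. No test was made, since the members were chosen on this contrast.

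**Figure D4:**
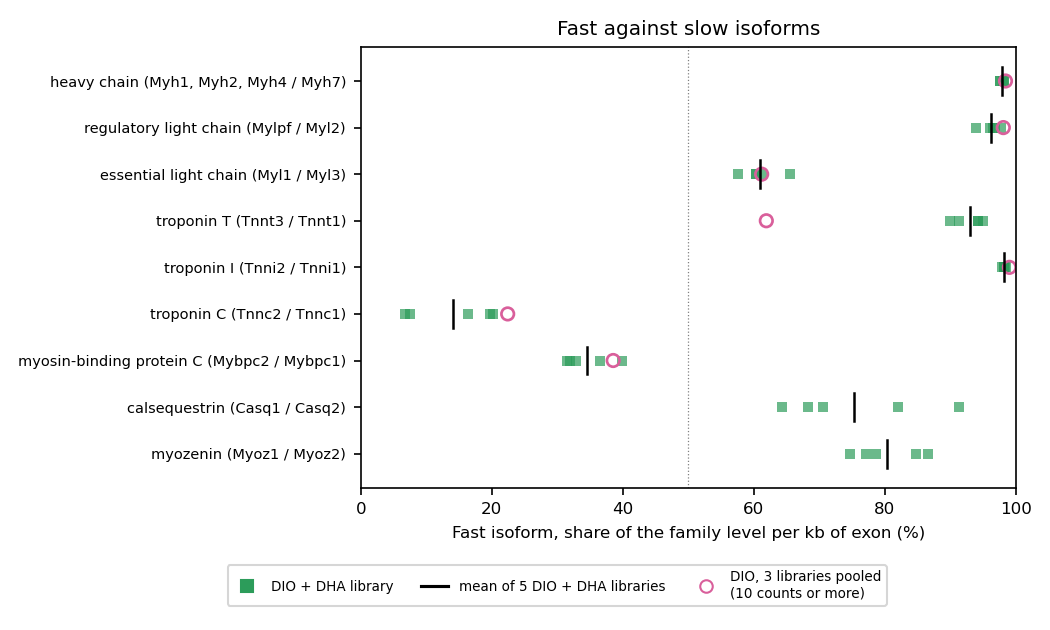
Share of the fast isoform in 9 families, per kb of exon. Squares are the 5 DIO + DHA libraries, bars their mean, and open circles the 3 DIO libraries pooled where these held 10 counts or more; the DIO circle of troponin T lies at 61.9%, apart from squares at 89.9% to 94.9%.

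Variation among the DIO + DHA mice was not used in choosing the genes. Of the members, 30 had at least 10 CPM in that group, with a median coefficient of variation of 12.2%, where counting error alone would give 9.23%. The 6191 genes at this level had a median of 10.5%, against 9.41% from counting. The division of counts among the members differed between the 5 libraries by more than counting error, with a chi-square per degree of freedom of 2.69, and of 1.14 among the 3 DIO libraries, where counts were few. Part of this followed coding length, a feature looked at after the values had been seen. All 6 members with at least 10 CPM and a coding length of at least 5000 bp (Myh1, Myh2, Myh4, Myh8, Neb and Ttn) were below their group mean in replicates 4 and 6, and above it in the other replicates. Their median was 113%, 116%, 82.3%, 116% and 67.1% of the mean in replicates 1, 2, 4, 5 and 6. For the 12 members under 1000 bp it was 108%, 94.8%, 98.9%, 94.3% and 105%.

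The 203 other genes with at least 10 CPM and such a coding length shifted the same way by less, with medians of 101%, 103%, 96.7%, 104% and 93.9%. For the 51 of at least 8000 bp they were 101%, 106%, 94.3%, 106% and 89.7%. The part of RNA quality in this difference was not tested. Without the members of at least 5000 bp, which left 47 with counts, the chi-square per degree of freedom was 2.00. With replicates 4 and 6 left out, 53 of 55 tested members were called higher, and 1641 of 12509 genes were called in either direction.

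**Figure D5:**
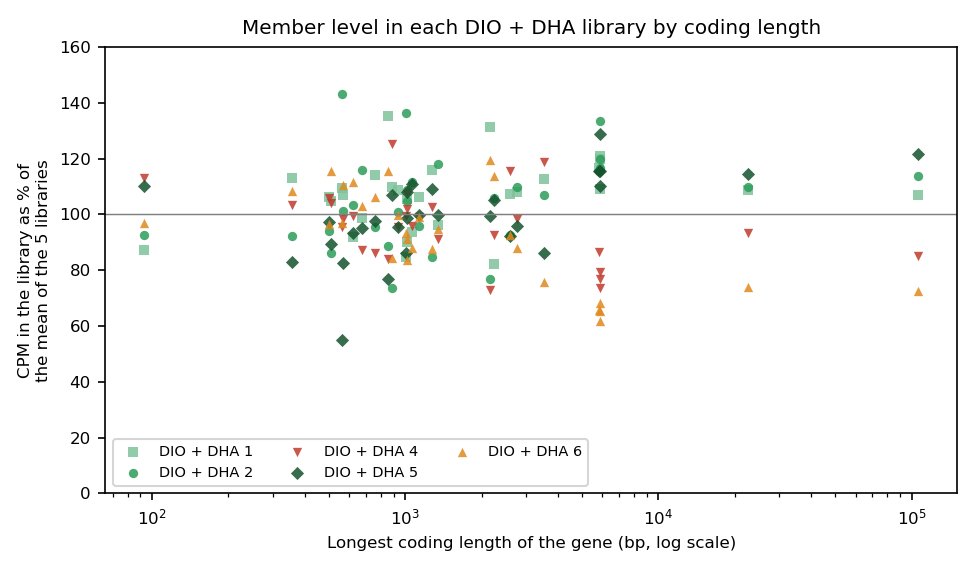
CPM of each of the 30 members with at least 10 CPM in a DIO + DHA library, as a percentage of the mean of the 5 libraries, against the longest coding length of the gene in bp (log axis). From 5000 bp upwards, replicates 4 and 6 lie below 100% and the other 3 libraries above it.

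Genes of the same tissue that are no members were looked at too, from a list chosen with earlier results of these data known. Of 62 other skeletal muscle genes, 36 were tested, 32 were called higher in DIO + DHA and 4 were not called, with a median of 3.51 on the log2 scale. Among all tested genes 7.86% were called higher. Some of the 36, such as Vgll2, had 0 counts in DIO and passed the filter only through the DIO + DHA group, so nothing is read from the count. Smyd1 had the only negative value (-0.02 ± 0.238 SE, edgeR adjusted p = 0.96). Their 3 most abundant were subunits of cytochrome c oxidase used in muscle and heart, and the tissue that their RNA came from was not tested. Cox6a2 was at 2.81, 2.88 and 3.19 CPM in DIO and at 86.7, 78.6, 81.2, 76.9 and 84.1 CPM in DIO + DHA (log2 fold change 4.75 ± 0.158 SE, edgeR adjusted p = 2.9e-32). Cox8b had a log2 fold change of 4.76 ± 0.193 SE (edgeR adjusted p = 3.0e-28) and Cox7a1, at 18.8 to 22.9 CPM in DIO already, of 1.49 ± 0.118 SE (edgeR adjusted p = 9.0e-16). Regulators of muscle formation were found at a few counts or none. Vgll2 had 0 counts in DIO and 23 in DIO + DHA and was called higher (log2 fold change 5.30 ± 1.27 SE, edgeR adjusted p = 0.0016), and Myf6 had 0 and 15 counts, too few to be tested. The satellite cell factor Pax7 and Myf5 had 0 counts in all libraries, Myod1 had 1 and Myog 3 counts, all in DIO + DHA. Heavy chains of extraocular muscle, Myh13 and Myh15, had 0 counts.

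Most markers on the heart muscle list were at 0, too low to be tested or not called. Actc1, the cardiac actin, was instead on the list of other skeletal muscle genes. It had 3 counts in DIO and 74 in DIO + DHA and was called higher (log2 fold change 3.86 ± 0.577 SE, edgeR adjusted p = 4.7e-07). Of 14 cardiac genes, the adult cardiac heavy chain Myh6, the natriuretic peptides Nppa and Nppb, Nkx2-5 and Ryr2 had 0 counts in all 8 libraries, Mybpc3 had 1 count and Myl7 4. Their summed level was 5.14 to 8.42 CPM in DIO and 5.88 to 9.81 CPM in DIO + DHA. Of 5 tested, Sbk2 was called higher (0 counts in DIO and 1.09 to 3.34 CPM in DIO + DHA, edgeR adjusted p = 2.5e-05) and 4 were not called, including Tnnt2 (log2 fold change -0.17 ± 0.497 SE, edgeR adjusted p = 0.88). Of 14 smooth muscle genes, 9 were tested and 3 called higher, Acta2, Actg2 and Synpo2. The most abundant of that list, Pcp4l1, Mylk and Acta2, had log2 fold changes of 0.14 ± 0.0880, -0.26 ± 0.128 and 1.41 ± 0.288 SE, and the sums were 131 to 137 CPM in DIO and 140 to 167 CPM in DIO + DHA. The share called higher among all tested genes, 7.86%, is the background for these counts. Sbk2, Actc1, Actg2 and Synpo2 had fewer than 5 counts in every DIO library. They passed the filter only through the DIO + DHA group, so nothing is read from their calls.

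Some genes of other tissues than muscle were also called higher in DIO + DHA. Of 33 genes of stratified squamous epithelium, the lining of skin, mouth and oesophagus, 32 were in the tables, 17 were tested, 16 were called higher and 1 was not called. Among all tested genes 7.86% were called higher. Several of the 17, such as Krt13, had 0 counts in DIO and passed the filter only through the DIO + DHA group, so nothing is read from the count. Krt4 had 1 count in DIO and 26.5, 20.7, 22.4, 27.8 and 28.3 CPM in DIO + DHA, and Krt13 had 0 counts in DIO and 14.8, 15.7, 18.5, 13.3 and 16.3 CPM. Krtdap was at 0.531 to 0.561 CPM in DIO and 24.4 to 31.7 CPM in DIO + DHA (edgeR adjusted p = 8.7e-24). Perp and Ly6d, which averaged 41.3 CPM or more in both groups, were called with small differences (log2 fold changes of 0.26 ± 0.0749 and 0.32 ± 0.104 SE). The sum of the list was 199 to 212 CPM in DIO and 328 to 365 CPM in DIO + DHA, and Krt1 and Krt16 were at 0 in all libraries.

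Brown fat gave 3 calls among 4 tested of 8 genes, with sums of 315 to 349 CPM in DIO and 314 to 350 CPM in DIO + DHA that were mostly Kng2 (327 and 312 CPM on average, not called). For this list and those that follow, the 7.86% of all tested genes called higher is the background. Some of their called genes, such as Ucp1, Upk3b and Tbx1, had fewer than 5 counts in every DIO library. These passed the filter only through the DIO + DHA group, so nothing is read from their calls. Ucp1, the uncoupling protein of brown fat, had 0 counts in DIO and 2.85 to 5.02 CPM in DIO + DHA (edgeR adjusted p = 4.9e-10), and Elovl3 a log2 fold change of 0.98 ± 0.280 SE (edgeR adjusted p = 0.0099). Of 8 adipocyte genes 6 were tested and 4 called higher, with Cfd (log2 fold change 4.47 ± 0.241 SE) and Fabp4 (1.31 ± 0.131 SE) the most abundant after Pck1, a gene that hepatocytes use and that was not called (0.01 ± 0.0634 SE). The list summed to 893 to 919 CPM in DIO and 926 to 1025 CPM in DIO + DHA. Upk3b of 2 tested mesothelial genes, Ncmap, the only tested of 7 peripheral nerve genes, and Tbx1 of 3 tested regulators of head and trunk muscle were called higher. The levels of these lists summed, in DIO and then DIO + DHA, to 2.12 to 3.24 and 3.92 to 5.02 CPM (7 mesothelial genes), 4.14 to 5.05 and 7.13 to 10.4 CPM (nerve), and 4.96 to 7.30 and 6.35 to 10.3 CPM (13 regulators). None of 6 tendon genes had enough counts to be tested (0.561 to 1.44 CPM in DIO and 1.58 to 2.34 CPM in DIO + DHA). Of the 8 hepatocyte markers, 2 were called higher, 2 lower and 4 not called, among the latter Alb (log2 fold change 0.12 ± 0.0600 SE) and Ttr (-0.02 ± 0.0565 SE), while Apoa1 was higher (0.52 ± 0.0565 SE). The part of RNA from other tissues in the level of the members was not tested. The labels give all 8 libraries the same batch number.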

How the data were processed

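Liver poly(A) RNA of 8 mice was measured, with 1 library per mouse (3 DIO and 5 DIO + DHA). The deposited values are whole-number counts of reads per gene, which the authors made without normalization. They prepared 3′-enriched cDNA with sample barcodes and unique molecular identifiers, aligned reads to GRCm39 with STAR 2.7.9a and counted them on GENCODE M33 exons with featureCounts 1.6.0. Per the file headers, the counting command gave no strand or overlap setting, which leaves out reads in overlapping genes and those with several alignments. It is not stated if reads with the same identifier were merged, and intervals and floors cover counting error only. Libraries held 1723800 to 5690347 counts.

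Gene names came from GENCODE M39, which held 56323 of 56884 identifiers. Following the study's methods, genes whose counts fell short of 5 in over 50% of libraries in both groups were left out. Counts were scaled by TMM and tested over 12412 genes in edgeR 4.0.16 (R 4.3.3) by the quasi-likelihood method, with Benjamini-Hochberg adjustment and a threshold of 0.05. The test was tried on simulated counts with 200 changed genes. Intervals are exact (Clopper-Pearson, 95%), a group at 0 was given a floor of 3 counts, and exon lengths came from the count tables. P-values measure the spread between mice.

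The members and all lists were chosen with earlier results of these data known. Members were all accounted for, with values per library for the isoform families and the most abundant members of each role. Other genes were named when among the 3 most abundant of their list in DIO + DHA or as defining markers near 0. Upk3b, Ncmap, Tbx1, Sbk2, Krt4, Krt13, Actg2, Synpo2 and Actc1 were named after their values were seen. Alternatives covered normalization (DESeq2 1.42.0 size factors, library size, TMM without the members and lists), the test (DESeq2, voom of limma 3.58.1), the filter, the replicate number as a block, length scaling and leaving out libraries. Replicate numbers 1, 4 and 5 occur in both groups with no stated link. Serum, histology and quantitative PCR data were not analysed here.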

Additional observations from a re-analysis of the deposited data

Results flagged for a closer look

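The level of Ankrd2, the stretch-responsive Z disc gene, was 13.7 CPM in DIO + DHA replicate 2, against 8.51 to 9.97 CPM in the other 4 libraries of the group. Its gap to the nearest library took up 0.72 of the range of the group. It was the only such library among 106 values examined, and chance alone would mark about 1 in 20 of them.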

How the results depend on the processing

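Of 1009 alternative log2 fold changes of the 56 tested members, 1003 kept their direction and their side of the threshold and 0 changed sign. The log2 fold change of Tnnc2 lost its call in 5 alternatives (2.88 with DESeq2, 2.46 with limma-voom at B above 0, and 2.04 to 2.58 without DIO replicate 1, DIO replicate 5 or DIO + DHA replicate 1), and the log2 fold change of Ankrd2 gained one without DIO replicate 5 (0.85). Requiring at least 10 counts in every library left only 6 members to test, of which 5 were called, and then 3 other skeletal muscle, 0 cardiac, 2 squamous and 0 smooth muscle genes. Of all genes, 1413 of 7760 were called in either direction under that filter. With filterByExpr, 0 cardiac, 7 squamous and 1 smooth muscle genes were called higher, and 1764 of 10794 genes in either direction. With limma-voom at B above 0, 859 of all genes were called in place of 1880. The log2 ratio of the summed members, 3.76, was 3.46 without Acta1 and 5.12 without the 7 members at 1 CPM or more and above 10% of their DIO + DHA level in DIO, an alternative chosen after seeing the data whose rise follows from that choice. From counts not divided by length, fast shares were 81.7% (heavy chain), 97.2% (heavy chain against Myh7), 93.2% (regulatory light chain), 90.4% (troponin T), 95.8% (troponin I), 29.6% (myosin-binding protein C) and 69.5% (myozenin), and for troponin C 37.3% per kb of unshared exon. Among other named genes, uncalled values near 0 changed sign. The log2 fold change of Pck1 was -0.0189 by library size, -0.0276 with a replicate block and -0.0195 to 0.021 over the single libraries left out. The log2 fold change of Tnnt2 was 0.0551 with a replicate block, 0.26 without DIO + DHA replicates 4 and 6 and -0.48 to 0.15 over the single libraries left out, and the log2 fold change of Ttr was -0.0579 to 0.0107 over these. Calls of Ly6d, Perp, Elovl3 and Ncmap were lost in 14 alternatives. The cause of these changes was not tested, apart from the fewer genes that a stricter filter leaves.

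Deviations of same-numbered libraries correlated at -0.01, -0.013 and -0.0152, so no pairing by number was seen. With so few number matches at this depth, a link between mice could still be missed. With the replicate block, 1539 of 12412 genes were called in either direction. Called higher were 54 members, 30 other skeletal muscle, 14 squamous, 2 smooth muscle and 1 cardiac genes. In DIO, levels under about 1 CPM rest on a few counts, so differences among the low members could not be seen at this depth.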
